A study of Mus musculus with 18 samples.

Results

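The JAK-STAT genes described here are 10 genes of cytokine signaling, taken by name from the 50686 genes of the count files. They are the kinases Jak1, Jak2 and Tyk2, the transcription factors Stat3, Stat5a, Stat5b and Stat6, and the feedback inhibitors Socs1, Socs3 and Cish. All 10 were found in the files, 9 passed the filter on low counts, and Cish had no count in any library.

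RNA was sequenced from E0771 cells, a murine triple-negative breast cancer (TNBC) line that carried a Firefly Luciferase construct in all groups. The cells were then transduced with a retroviral vector that also encodes mCherry, and were sorted on mCherry. The vector held a control hairpin (cntrl) or either of a pair of hairpins against Cdk8 (shCdk8-1 and shCdk8-2). Treatment lasted 48 h, with DMSO or with 1 µM Senexin B (SnxB) given to each of the 3 lines. SnxB is an inhibitor of the Mediator kinases CDK8 and CDK19. This gave 6 groups of 3 libraries and 18 libraries in all. The treatment labels name no added cytokine. Each hairpin was represented by a single sorted line, so hairpin and line cannot be told apart. Separate cultures are not named for the 3 libraries of a group, so p-values measure the spread between these libraries, which may be technical. In each treatment the file headers of the shCdk8-2 libraries labelled 1, 2 and 3 carry the numbers 2, 3 and 3. All pairs of libraries within a group differed by more than sampling noise (chi-square over genes of 1.62 to 17.5 per degree of freedom). The lowest value, 1.62, was that of the shCdk8-2 libraries labelled 2 and 3 in SnxB, which both carry the number 3. In DMSO the shCdk8-2 libraries labelled 2 and 3 gave 10.9. A spread beyond sampling noise does not show that libraries come from separate cultures.

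Cytokine receptors of this pathway have no catalytic domain of their own and signal through bound Janus kinases. Ligand binding brings the kinases together, they phosphorylate the receptor and then a STAT protein, and the STAT dimer enters the nucleus and switches on target genes. Genes of the SOCS family are among these targets, and their proteins block the kinases or the receptor, which closes a negative feedback loop. The mammary gland uses the pathway during development, with STAT5 downstream of prolactin in secretory cells and STAT3 active when the gland regresses after weaning. CDK8 belongs to the kinase module of Mediator and is known to phosphorylate STAT proteins within their transactivation domain. RNA levels give no view of phosphorylation.

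The libraries held 16452260 to 22664693 counts, and 3 counts in a library corresponded to 0.132 to 0.182 CPM (counts of a gene scaled to a library total of 1000000). Cdk8 was at 53.96 to 57.8 CPM in cntrl cells in DMSO, at 18.4 to 23.6 CPM in shCdk8-1 cells and at 39.0 to 39.5 CPM in shCdk8-2 cells. In SnxB it was at 50.9 to 56.6, 20.4 to 25.0 and 36.8 to 42.2 CPM in these lines. The libraries thus followed their hairpin labels. Cdk8 gave no check of the treatment labels, since its level with SnxB was close to that in DMSO (log2 fold change -0.03 in cntrl). Of 8 genes listed for mammary epithelium or carcinoma cells, Krt18, Krt14 and Krt5 had at most 1 count in any library. Epcam had at most 8 counts, Krt7 at most 10 and Cdh1 at most 17, and Krt8 was at a median of 7.45 CPM (0 to 13.7). Vim, which is on this list but is not an epithelial marker, was at 3587 to 4408 CPM. Of 8 leukocyte markers, 6 had at most 3 counts everywhere. The summed level of the leukocyte list was 0.433 to 1.14 CPM in the cntrl libraries, 0 to 0.162 CPM in shCdk8-1 and 0 to 0.221 CPM in shCdk8-2. The summed level of 3 endothelial markers was 2.68 to 5.53 CPM in cntrl, 13.7 to 17.98 CPM in shCdk8-1 and 6.46 to 7.80 CPM in shCdk8-2, and that of 4 fibroblast markers was 542 to 692, 386 to 449 and 412 to 490 CPM. Most of the fibroblast sum came from Pdgfra (223 to 368 CPM) and Pdgfrb (157 to 324 CPM). Dcn was at 0.365 to 2.39 CPM, and Lum had at most 7 counts in any library. Of the endothelial markers, Pecam1 was at 0.182 to 17.8 CPM, Cdh5 at 0.108 to 4.68 CPM, and Kdr had at most 12 counts. The sums thus rest on few genes and do not show that such cells were present. These lists separated the lines as well, and their part in the results on the JAK-STAT genes was not tested. In bulk RNA, fewer cells of a kind and less RNA per cell cannot be told apart.

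To ask how Cdk8 knockdown and CDK8/CDK19 inhibition went along with the expression of the pathway's core genes, the 9 members with counts were compared between the lines and between SnxB and DMSO. Socs3 rose and Jak1, Stat3, Stat5a, Stat6 and Socs1 fell with each hairpin. For SnxB no member passed, beside 5.53% of all genes tested in cntrl, 1.48% in shCdk8-1 and 2.05% in shCdk8-2. With shares this low, 0 of 9 members does not set the members apart from other genes. All shifts were below 2-fold. The largest rise was that of Socs3, 1.70-fold with shCdk8-1 and 1.49-fold with shCdk8-2, and the falls ran from 6.68% to 21.7% in DMSO. In edgeR's quasi-likelihood test with Benjamini-Hochberg adjustment over 12590 genes, 8 of the 9 members passed an adjusted p under 0.05 for shCdk8-1 against cntrl, and 6 of 9 for shCdk8-2. These counts stand beside a high background, since 60.6% and 58.2% of all genes tested passed in the same comparisons. For shCdk8-1, 7 of 9 members were lower and 1 higher, where 30.6% of all genes were lower and 30.0% higher. For shCdk8-2, 5 of 9 were lower and 1 higher, where the shares were 29.5% and 28.7%. The median log2 fold change of the 9 members was -0.20 for shCdk8-1 and -0.17 for shCdk8-2, and that of all genes 0.00191 and 0.00432. The median size of the change was 0.21 and 0.25 on the log2 scale, beside 0.26 and 0.24 over all genes. Both comparisons share the cntrl libraries in DMSO.

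**Figure D1:**
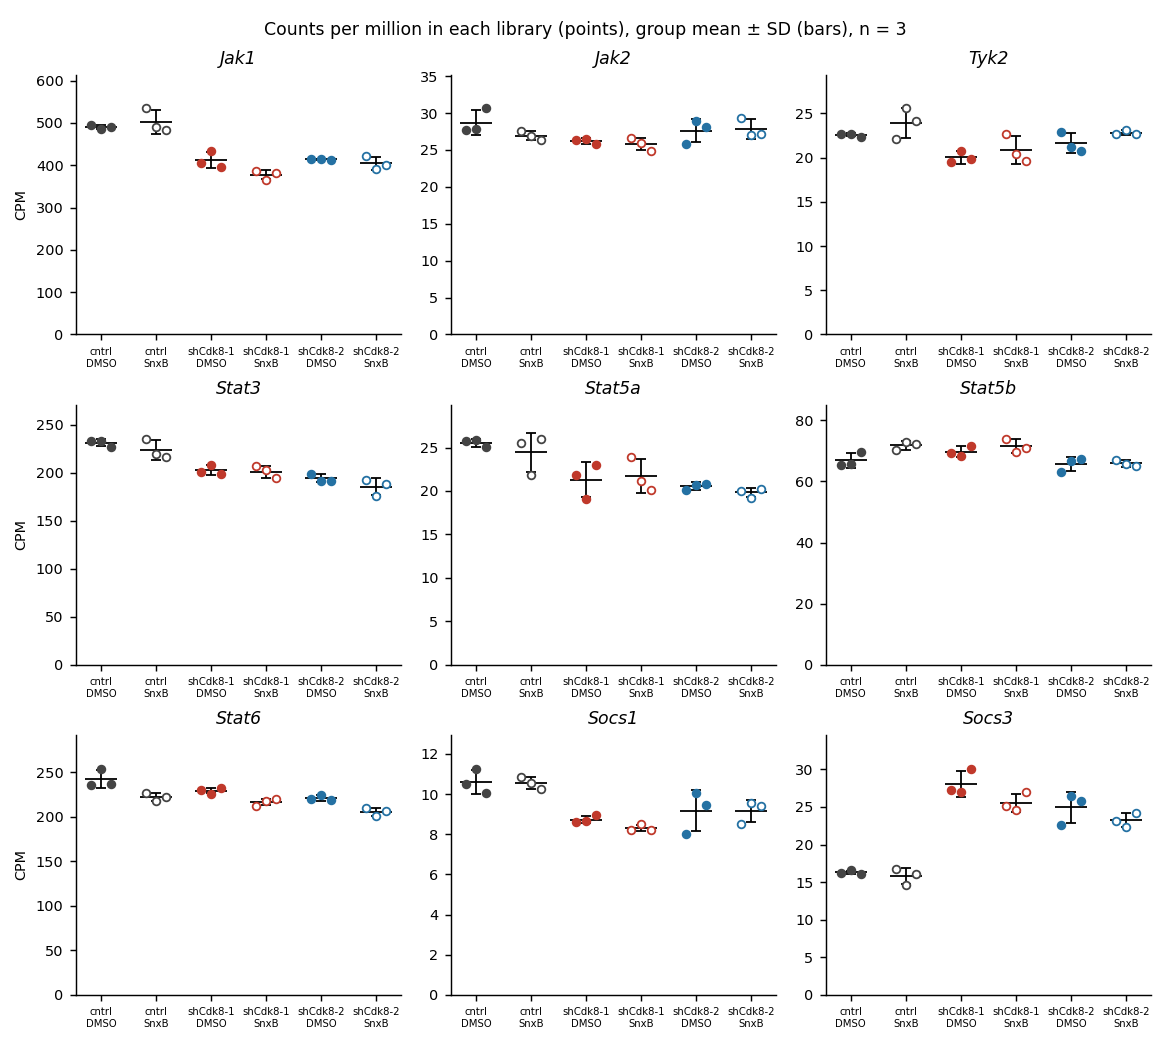
CPM of the 9 JAK-STAT genes with counts in each of the 18 libraries (points; filled for DMSO, open for SnxB) by line and treatment, with the group mean ± SD as bars (n = 3) and each vertical axis starting at 0. Socs3 sat between 14.7 and 16.8 CPM in all cntrl libraries and between 22.4 and 30.1 CPM in all knockdown libraries, while Jak1 was between 483 and 534 CPM in cntrl and between 365 and 433 CPM in the knockdown lines.

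Levels between genes were compared per kilobase of exon (RPKM, from CPM and the length of the union of exons in the files). In cntrl cells in DMSO, Jak1 was at 67.8 ± 0.607 RPKM (SD, n = 3), Stat6 at 55.0 ± 2.33 and Stat3 at 24.3 ± 0.363. Stat5b followed at 12.1 ± 0.428, Socs1 at 8.69 ± 0.504, Jak2 at 5.71 ± 0.329 and Socs3 at 5.63 ± 0.0837 RPKM. Stat5a was at 3.58 ± 0.0634 and Tyk2 at 3.29 ± 0.0276 RPKM. The pathway was thus carried by unequal amounts of transcript, with Jak1 at 11.1 to 12.4 times the level of Jak2 across the 3 libraries and Stat5b at 3.27 to 3.58 times the level of its close relative Stat5a. Of the neighbors in this order, Jak2 and Socs3 did not differ beyond the spread of their libraries, and the libraries of all other neighbors did not overlap. The lower part of the order depends on the length used. With the longest protein-coding transcript of GENCODE M21, Jak1 (99.8 RPKM), Stat6 (64.1), Stat3 (38.3) and Stat5b (12.8) kept their places, and Socs1 moved from 8.69 to 3.65 RPKM. The ratio of mean levels of Stat5b to Stat5a was 3.37 by union length and 1.95 by transcript length, and that of Jak1 to Jak2 11.9 and 17.5. That transcript of Socs1 is 2908 bases long, against 1220 bases in the gene model that was counted, so the smaller value divides by bases that were not counted.

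**Figure D2:**
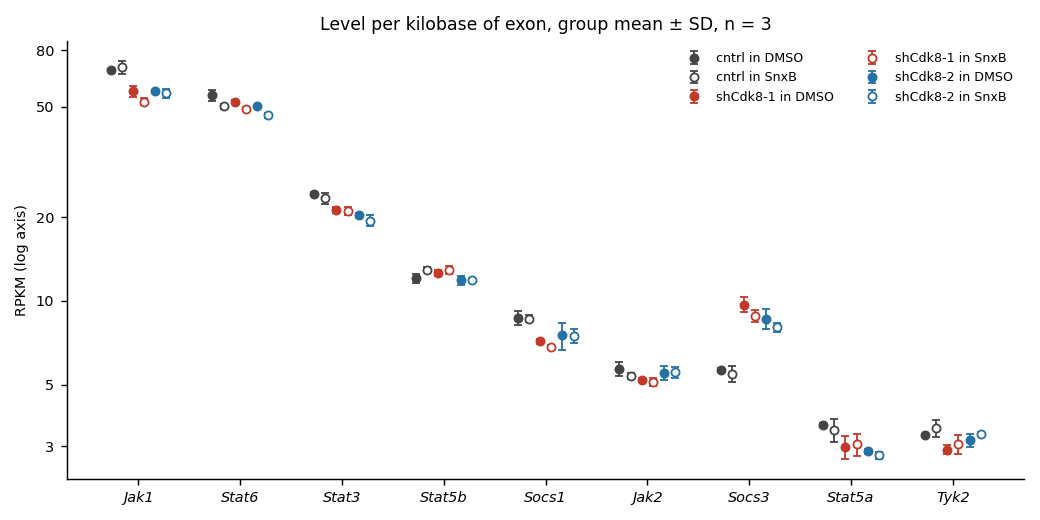
Level per kilobase of exon (RPKM, log axis) of the 9 members in the 6 groups, as group mean ± SD (n = 3), ordered by the level in cntrl cells in DMSO. The order ran from Jak1 at 67.8 RPKM to Tyk2 at 3.29 RPKM in cntrl cells in DMSO, and Socs3 went from 5.63 RPKM in cntrl cells to 9.71 and 8.63 RPKM in shCdk8-1 and shCdk8-2 cells, where Socs1 was at 7.15 and 7.51 RPKM by the same lengths.

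Among the kinases, Jak1 moved most. Jak1 (ENSMUSG00000028530.14, GRCm38 chr4:101152367-101265282, minus strand) serves interferon, common gamma chain and gp130-type receptors. Its level was 494, 485 and 490 CPM in the cntrl libraries in DMSO, 406, 433 and 397 CPM with shCdk8-1, and 414, 415 and 412 CPM with shCdk8-2. Every knockdown library lay below every cntrl library. The log2 fold change was -0.27 for shCdk8-1 (adjusted p = 2.01e-04) and -0.28 for shCdk8-2 (adjusted p = 1.55e-04), with standard errors of 0.0503 and 0.0502, which are falls of 17.2% and 17.8%. Both kinases beside it were lower in level and changed less. Tyk2 (ENSMUSG00000032175.11, chr9:21104068-21131243, minus strand), which pairs with Jak1 at type I interferon receptors, was at 22.7, 22.7 and 22.4 CPM in cntrl, at 19.5, 20.8 and 19.8 CPM with shCdk8-1 and at 22.9, 21.2 and 20.8 CPM with shCdk8-2. It fell with shCdk8-1 (log2 fold change -0.20, adjusted p = 0.0136), and the libraries did not overlap. This call was lost without shCdk8-1 replicate 1 (adjusted p = 0.0671). With shCdk8-2 the groups overlapped and the difference did not pass (log2 fold change -0.10, adjusted p = 0.190).

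Jak2 (ENSMUSG00000024789.12, chr19:29251828-29313080, plus strand) is the kinase of the prolactin, growth hormone and erythropoietin receptors. It was at 27.7, 27.8 and 30.6 CPM in cntrl cells in DMSO, at 26.4, 26.5 and 25.7 CPM with shCdk8-1 and at 25.9, 28.9 and 28.1 CPM with shCdk8-2. Its fall with shCdk8-1 was small (log2 fold change -0.16, adjusted p = 0.0442). It did not hold with DESeq2 (adjusted p = 0.0869), edgeR's likelihood ratio test (0.0548) or no filter (0.0875). Nor did it hold with RLE scaling (0.0519), library totals (0.0704) or the replicate number as a block (0.0573). It was lost in 6 of 12 fits without 1 library, with an adjusted p of 0.237 without cntrl replicate 3. It held with a filter of more than 1 CPM in 3 libraries and with all 18 libraries in the fit. With shCdk8-2 the log2 fold change was -0.10 (95% interval -0.23 to 0.04, adjusted p = 0.198). Between both knockdown lines Jak2 differed by 0.06 on the log2 scale, with an interval from -0.08 to 0.19.

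Of the STAT genes, Stat3, Stat5a and Stat6 fell with each hairpin in DMSO, and Stat5b did not pass. Stat3 (ENSMUSG00000004040.16, chr11:100885098-100939540, minus strand) acts downstream of IL-6 family cytokines. It was at 233, 233 and 227 CPM in cntrl, at 201, 208 and 199 CPM with shCdk8-1, and at 199, 192 and 192 CPM with shCdk8-2. The groups were separate, with a log2 fold change of -0.21 for shCdk8-1 (adjusted p = 4.61e-04) and of -0.29 for shCdk8-2 (adjusted p = 2.66e-05), each with a standard error of 0.0432. Stat6 (ENSMUSG00000002147.18, chr10:127642986-127660957, plus strand), the transducer of IL-4 and IL-13, was at 235, 254 and 237 CPM in cntrl, at 230, 226 and 232 CPM with shCdk8-1, and at 220, 224 and 219 CPM with shCdk8-2. The gap between cntrl and shCdk8-1 was narrow, with 235 CPM as the lowest value in cntrl and 232 CPM as the highest with shCdk8-1. Its fall was 6.68% with shCdk8-1 (adjusted p = 0.0227), which did not pass with library totals in place of TMM scaling (adjusted p = 0.0550), with no filter (adjusted p = 0.0548), or without cntrl replicate 2 (adjusted p = 0.148) or shCdk8-1 replicate 1 (adjusted p = 0.0867). It was 11.1% with shCdk8-2 (adjusted p = 6.58e-04).

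Stat5a and Stat5b, close relatives that both transduce prolactin and growth hormone signals, lie next to Stat3 on chromosome 11. Stat5a (ENSMUSG00000004043.14, chr11:100859351-100885169, plus strand) was at 25.7, 25.9 and 25.0 CPM in cntrl, at 21.8, 19.1 and 23.0 CPM with shCdk8-1 and at 20.1, 20.7 and 20.9 CPM with shCdk8-2. All knockdown libraries were below all cntrl libraries, with log2 fold changes of -0.28 ± 0.0749 (standard error; adjusted p = 0.00381) and -0.35 ± 0.0750 (adjusted p = 7.75e-04). Stat5b (ENSMUSG00000020919.11, chr11:100780731-100850724, minus strand) was at 65.4, 65.6 and 69.6 CPM in cntrl, at 69.3, 68.2 and 71.7 CPM with shCdk8-1 and at 63.0, 66.6 and 67.4 CPM with shCdk8-2. These groups overlapped, and the log2 fold changes of 0.04 (95% interval -0.05 to 0.13) and -0.07 (95% interval -0.16 to 0.02) did not pass. The ratio of Stat5b to Stat5a, per kilobase, was at most 3.58 in the cntrl libraries in DMSO, at least 4.02 with shCdk8-1 and 4.04 to 4.16 with shCdk8-2, so its libraries did not overlap between cntrl and either line. The ratio in cntrl cells in SnxB, 3.55 to 4.30, reached into the range of the knockdown lines.

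How reads were assigned bears on this trio. Stat5a and Stat5b share sequence: of the 5164 stretches of 50 bases in the longest Stat5b transcript, 608 (11.8%) also occurred in Stat5a, and reads that map to both places were left out. The tails of Stat3 and Stat5a overlap by 72 bases on opposite strands, and Stat6 overlaps Nab2 by 40 bases on the opposite strand. Reads were counted by strand, which keeps such pairs apart.

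The feedback inhibitors moved in opposite directions. Socs3 (ENSMUSG00000053113.3, chr11:117966079-117970047, minus strand) encodes the inhibitor of gp130-type receptors and their Janus kinases and is itself induced by STAT3. It was at 16.2, 16.6 and 16.1 CPM in cntrl cells in DMSO, at 27.2, 27.0 and 30.1 CPM with shCdk8-1, and at 22.6, 26.4 and 25.8 CPM with shCdk8-2. No knockdown library came near the cntrl libraries. The log2 fold change was 0.76 ± 0.0768 for shCdk8-1 (standard error; adjusted p = 3.22e-07) and 0.57 ± 0.0775 for shCdk8-2 (adjusted p = 1.01e-05). Between the knockdown lines, shCdk8-2 was lower than shCdk8-1 by 0.19 on the log2 scale, which did not pass (95% interval -0.34 to -0.03, adjusted p = 0.0771). Socs3 thus rose in cells in which the transcript of its inducer Stat3 was lower, and the activity of STAT3 was not measured by RNA.

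Socs1 (ENSMUSG00000038037.4, chr16:10783808-10785536, minus strand), which binds Janus kinases and restrains interferon signaling, went the other way. It was at 10.5, 11.3 and 10.0 CPM in cntrl, at 8.58, 8.65 and 8.95 CPM with shCdk8-1, and at 8.03, 10.0 and 9.43 CPM with shCdk8-2. The shCdk8-1 libraries lay below cntrl (log2 fold change -0.30, standard error 0.0896, adjusted p = 0.00807). The shCdk8-2 libraries touched the cntrl range (log2 fold change -0.25, standard error 0.0885, adjusted p = 0.0220), and this call was lost with DESeq2 (adjusted p = 0.0658), without cntrl replicate 2 (adjusted p = 0.0977) and without shCdk8-2 replicate 1 (adjusted p = 0.185). The ratio of Socs3 to Socs1 per kilobase was 0.621 to 0.676 in cntrl, 1.32 to 1.42 with shCdk8-1 and 1.11 to 1.19 with shCdk8-2. Its absolute value depends on the length given to Socs1, with 0.648 for the cntrl means by union length and 1.75 by transcript length, and the separation of the groups does not.

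**Figure D3:**
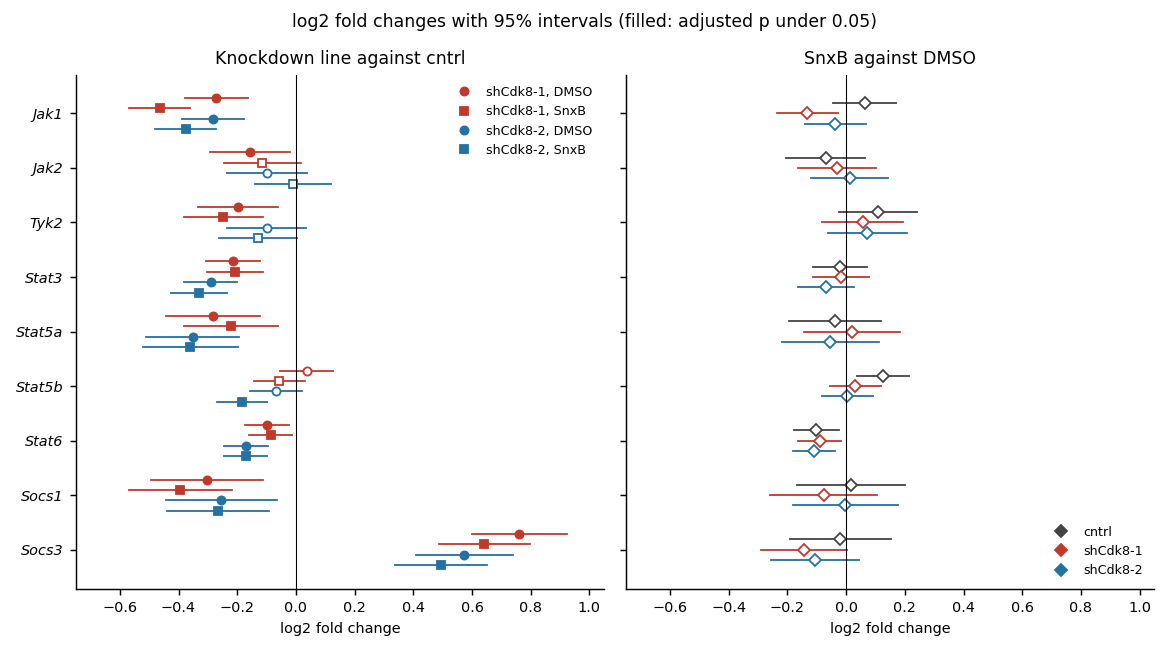
log2 fold changes of the 9 members with 95% intervals (horizontal lines), on the left for each knockdown line against cntrl in DMSO (circles) or in SnxB (squares), on the right for SnxB against DMSO in each line; filled symbols passed an adjusted p under 0.05. Of the filled symbols only those of Socs3 lay above 0, at 0.50 to 0.76. Jak1 reached -0.46 with shCdk8-1 in SnxB, and no symbol is filled in the right panel.

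STAT dimers are known to bind the palindrome TTCNNNGAA, which reads alike on both strands, and the start regions of the SOCS family genes were searched for it because these genes are the textbook STAT targets among the members. In RefSeq windows from 250 bases before to 50 bases after a transcript start (build GRCm38.p6), 8.30% of all 32851 windows held the motif. All 10 members had a window, 12 in all since Stat5a and Stat5b have a pair each, and only the windows of Socs3 and Cish held a match. The windows are printed up to 20 bases after the start, with the motif in capitals. Socs3 held a match that begins 154 bases before the RefSeq start, and Cish a pair of matches, the first of which begins at the RefSeq start itself and the other 11 bases further on. These RefSeq starts lie inside the gene models that were counted (chr11:117966079-117970047 for Socs3 and chr9:107296026-107302784 for Cish). Both printed windows, with their matches, therefore lie within the spans of those gene models. A pair of matches or more occurred in 0.457% of all windows. The matches are a description of the letters, and binding was not measured.
Socs3, chr11:117969347-117969616, minus strand: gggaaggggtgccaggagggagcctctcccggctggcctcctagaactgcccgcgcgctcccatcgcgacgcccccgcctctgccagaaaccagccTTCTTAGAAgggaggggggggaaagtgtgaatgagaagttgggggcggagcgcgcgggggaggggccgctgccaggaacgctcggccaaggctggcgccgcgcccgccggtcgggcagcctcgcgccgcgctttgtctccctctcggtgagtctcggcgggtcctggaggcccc
Cish, chr9:107296409-107296678, plus strand: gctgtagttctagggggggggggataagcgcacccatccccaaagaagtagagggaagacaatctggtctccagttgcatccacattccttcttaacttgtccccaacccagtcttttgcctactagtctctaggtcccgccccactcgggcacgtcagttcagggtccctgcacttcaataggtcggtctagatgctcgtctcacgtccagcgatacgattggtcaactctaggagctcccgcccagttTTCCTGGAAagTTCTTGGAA

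Cish (ENSMUSG00000032578.7, chr9:107296026-107302784, plus strand), a classic STAT5 target whose protein damps signaling of STAT5-coupled receptors, had 0 counts in each of the 18 libraries. Over all 342829757 counts this allows a level of up to 0.00875 CPM, an upper limit that covers counting error only. Its surroundings were silent too. Cish lay within a run of 18 neighboring genes that each had at most 3 counts in any library, 6 of them protein-coding (Dock3, Mapkapk3, Cish, Hemk1, 6430571L13Rik and Cacna2d2). The run, which was delimited after its values were seen, spans chr9:106892825-107529343, a length of 637 kb, and held 21 counts in all. The protein-coding genes beside it were abundant, with 45312 counts for Manf and 24195 for Rbm15b on one side and 15262 for Tmem115 on the other. Mapkapk3, a widely expressed kinase of the p38 pathway, had 4 counts over the 18 libraries, and Hemk1, a methyltransferase of translation release factors, had 0. Runs with as many genes were found in 236 places and runs with as many protein-coding genes in 224, among 8402 runs of silent genes across the genome. The run was silent in all 3 lines and both treatments alike. DNA of these cells was not measured, and the cause was not tested.

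**Figure D4:**
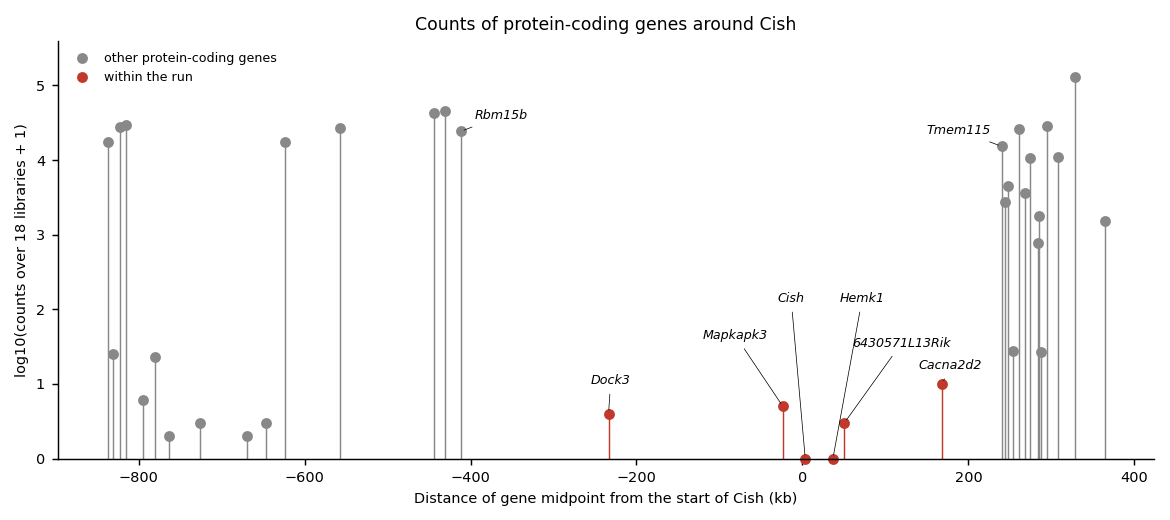
Counts summed over the 18 libraries, as log10(counts + 1), of the protein-coding genes around Cish by the distance of their midpoint from the start of Cish in kb. The 6 genes of the run (red) had 0 to 9 counts each, and Rbm15b and Tmem115, among the genes beside the run, had 24195 and 15262.

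The same lines were also compared in SnxB. These groups hold other libraries than the groups compared in DMSO, but the fits are not separate, since all 18 libraries set the spread here and the cntrl libraries in SnxB helped to set it in DMSO. In SnxB, 7 of 9 members passed for shCdk8-1 against cntrl, 6 lower and 1 higher, beside 60.6% of 12772 genes tested, 30.1% lower and 30.5% higher. For shCdk8-2, 7 of 9 passed, 6 lower and 1 higher, beside 56.7% of genes, 28.6% lower and 28.1% higher. Jak1 was at 534, 491 and 483 CPM in cntrl, at 386, 365 and 382 CPM with shCdk8-1 and at 421, 391 and 400 CPM with shCdk8-2. The distance between the lines was wide for Jak1, with log2 fold changes of -0.46 (adjusted p = 9.56e-08) and -0.38 (adjusted p = 2.06e-06). Socs3 was at 16.8, 14.7 and 16.1 CPM in cntrl, at 25.1, 24.6 and 26.9 CPM with shCdk8-1 and at 23.2, 22.4 and 24.2 CPM with shCdk8-2. It was again the member that rose, by 0.64 (adjusted p = 2.76e-07) and 0.50 (adjusted p = 1.07e-05) on the log2 scale. Stat3 fell by 0.21 (adjusted p = 5.25e-04) and 0.33 (adjusted p = 3.11e-06), Stat6 by 0.09 (adjusted p = 0.0393) and 0.17 (adjusted p = 2.94e-04), and Socs1 by 0.39 (adjusted p = 4.38e-04) and 0.27 (adjusted p = 0.00981, and 0.0617 without shCdk8-2 replicate 1 in SnxB). For Stat6 with shCdk8-1 the groups overlapped, and with library totals in place of TMM the adjusted p was 0.383. That call was also lost with edgeR's likelihood ratio test (adjusted p = 0.0700), with no filter (adjusted p = 0.0769) and in 10 of 18 fits without 1 library. Stat5a was at 21.9 to 26.0 CPM in cntrl in SnxB and overlapped with shCdk8-1 at 20.1 to 23.9 CPM, with log2 fold changes of -0.22 for shCdk8-1 (adjusted p = 0.0175, and 0.0681 with library totals) and -0.36 for shCdk8-2 (adjusted p = 4.86e-04). The Stat5a call with shCdk8-1 was also lost in 3 of 18 fits without 1 library, and with only the groups compared (adjusted p = 0.0540). Tyk2 fell with shCdk8-1 (log2 fold change -0.25, adjusted p = 0.00247), although its libraries at 19.6 to 22.7 CPM overlapped with cntrl at 22.1 to 25.6 CPM. With shCdk8-2 it was at -0.13 (adjusted p = 0.0922, and 0.0423 without cntrl replicate 1 in SnxB). Stat5b, which had not passed in DMSO, fell with shCdk8-2 in SnxB (log2 fold change -0.18, adjusted p = 7.50e-04), with 70.2, 73.0 and 72.4 CPM in cntrl and 67.1, 65.6 and 65.1 CPM in shCdk8-2. Jak2 passed in neither comparison, with log2 fold changes of -0.12 (adjusted p = 0.122) and -0.01 (adjusted p = 0.902).

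SnxB against DMSO gave 0 of 9 members in each line with edgeR, beside 5.53% of genes in cntrl, 1.48% in shCdk8-1 and 2.05% in shCdk8-2. Without 1 library, the genes called ranged from 418 (without cntrl replicate 2 in DMSO) to 740 in cntrl, where all libraries gave 696. They ranged from 112 to 443 in shCdk8-1 (189 with all; fewest without replicate 1 in DMSO, most without replicate 1 in SnxB) and from 141 to 302 in shCdk8-2 (262 with all). At an unadjusted p under 0.05, a cutoff at which all genes were not counted, there were 2, 2 and 1 members. DESeq2 called 0 members in each, beside 604 genes in cntrl, 215 in shCdk8-1 and 258 in shCdk8-2. edgeR's likelihood ratio test called 0 in each too, beside 766, 292 and 328 genes. In cntrl cells Stat6 was at 226, 217 and 222 CPM with SnxB, where DMSO gave 235, 254 and 237 CPM, and these libraries did not overlap. The log2 fold change of Stat6 was -0.10 in cntrl (95% interval -0.18 to -0.03, adjusted p = 0.120), -0.09 in shCdk8-1 (adjusted p = 0.240) and -0.11 in shCdk8-2 (adjusted p = 0.132), a drop of like size in each line that did not pass in any. With library totals in place of TMM it passed in cntrl (log2 fold change -0.13, adjusted p = 0.0329), and so it did without SnxB replicate 1 (log2 fold change -0.14, adjusted p = 0.0352). Stat5b was higher with SnxB in cntrl by 0.13 (95% interval 0.04 to 0.22), which did not pass either (adjusted p = 0.101). For Socs3 the interval in cntrl ran from -0.19 to 0.15 on the log2 scale and for Stat3 from -0.11 to 0.07, both short of the falls or rises seen between the lines. Jak1 was 0.13 lower with SnxB in shCdk8-1 cells (adjusted p = 0.229) and 0.06 higher in cntrl (adjusted p = 0.572).

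Whether the response to SnxB differed between the lines was tested by the interaction of drug and hairpin. No member passed, beside 0.305% of genes for shCdk8-1 and 0.0548% for shCdk8-2. These shares are 39 and 7 genes, and 13 to 42 and 1 to 10 genes without 1 library. DESeq2 called 0 members in both, beside 58 genes for shCdk8-1 and 19 for shCdk8-2. At an unadjusted p under 0.05, where all genes were not counted, there was 1 member for shCdk8-1 and 0 for shCdk8-2. The 1 member was Jak1, at -0.19 on the log2 scale (95% interval -0.34 to -0.05, adjusted p = 0.375). The knockdown lines themselves differed in 0 of 9 members in DMSO, beside 22.0% of all genes. DESeq2 called 0 members, beside 2392 of 12590 genes. Stat5b and Socs3 were the 2 members at an unadjusted p under 0.05, where all genes were not counted. Cdk8 itself was 0.85 higher in shCdk8-2 than in shCdk8-1 on the log2 scale (adjusted p = 3.07e-07). Ranges of CPM did not overlap for 8 of 9 members between shCdk8-1 and cntrl in DMSO, and for 5 of 9 with shCdk8-2, where 65.4% and 66.0% of all genes tested did not overlap.

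The wider pathway was described with 5 lists, whose counts stand beside the shares of all genes given above, 60.6% for shCdk8-1, 58.2% for shCdk8-2 and 5.53% for SnxB in cntrl, with about as many genes higher as lower for each hairpin. Of 23 ligands, 4 were tested, and 14 had at most 3 counts in every library, among them IL-3, IL-10, erythropoietin, prolactin and leptin at 0. For shCdk8-1, 2 ligands were lower and none higher; for shCdk8-2, 2 were lower and 1 higher. Lif, a gp130-type cytokine that signals through JAK1 and STAT3, was at 4.92 ± 0.854 CPM (SD, n = 3) in cntrl in DMSO, at 0.973 ± 0.141 CPM with shCdk8-1 and at 1.62 ± 0.273 CPM with shCdk8-2. It fell with each hairpin (log2 fold changes -2.37 and -1.63, adjusted p = 2.43e-08 and 6.04e-07) and was the ligand that fell with SnxB in cntrl (log2 fold change -0.56, adjusted p = 0.0378). Il15, which supports NK and T cells, was at 2.23 ± 0.0211 CPM in cntrl and at 0.0954 to 0.310 CPM in the knockdown libraries in DMSO, which is 2 to 6 counts. It fell with both hairpins (adjusted p = 6.04e-09 and 2.11e-08).

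Of 35 receptor genes, 17 were tested, with 4 higher and 5 lower for shCdk8-1 and 3 higher and 6 lower for shCdk8-2. Il2rg, the common gamma chain, was at 55.96 ± 2.20 CPM in cntrl, 15.5 ± 0.908 with shCdk8-1 and 22.4 ± 0.299 with shCdk8-2 (log2 fold changes -1.88 and -1.36, adjusted p = 1.68e-13 and 6.95e-12). Il4ra, the IL-4 and IL-13 receptor chain that activates STAT6, was at 35.9 ± 1.07 CPM in cntrl, 12.5 ± 0.849 with shCdk8-1 and 15.6 ± 0.412 with shCdk8-2 (log2 fold changes -1.54 and -1.24). These falls were larger than those of Jak1 and Stat6 themselves, whose intervals in DMSO reached no lower than -0.39 and -0.24. Osmr, the oncostatin M receptor, rose from 0.917 ± 0.0550 CPM in cntrl to 7.51 ± 0.361 with shCdk8-1 and 2.31 ± 0.249 with shCdk8-2 (log2 fold changes 3.00 and 1.28). In cntrl it fell with SnxB to 0.398 ± 0.118 CPM (log2 fold change -1.18, adjusted p = 0.0180). That fall rests on few counts, 15 to 18 per library in DMSO and 6 to 10 in SnxB. Il27ra rose as well, at a low level, by 1.33 and 1.76 on the log2 scale. The prolactin receptor had 1 count in 1 of the 18 libraries and 0 in the others, and the thrombopoietin and G-CSF receptors had 0 counts.

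Of 9 other kinases, STATs and partners, 8 were tested, with 3 higher and 3 lower for shCdk8-1 and 2 higher and 2 lower for shCdk8-2. Jak3, the kinase bound by the common gamma chain, fell by 0.55 and 0.61 on the log2 scale, and Nmi, an interferon-induced partner of STAT proteins, fell by 0.94 and 0.78. Irf9, a transcription factor of interferon signaling, rose by 0.58 and 0.65, and the coactivator Crebbp rose by 0.34 and 0.36. Of 20 other negative regulators, 19 were tested, with 8 higher and 7 lower for shCdk8-1 and 6 higher and 7 lower for shCdk8-2. Usp18, a brake on the type I interferon receptor, rose from 2.00 ± 0.607 CPM to 5.84 ± 0.490 and 5.72 ± 1.01 CPM (adjusted p = 4.76e-06 and 7.99e-06). Ptpn6, the phosphatase SHP-1, rose by 0.58 and 0.95, whereas the adaptor Sh2b3, which restrains JAK2, fell by 0.88 and 0.88 and the phosphatase Ptpn1 by 0.50 and 0.46 on the log2 scale. Socs2, the STAT5-induced relative of Cish, had 0 counts in all 18 libraries.

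Of 24 targets of STAT3, STAT5 and STAT6, 18 were tested, with 5 higher and 9 lower for shCdk8-1, 5 higher and 7 lower for shCdk8-2, and 2 higher with SnxB in cntrl. Il1rn was at 0.813 ± 0.162 CPM in cntrl and at 0.0441 to 0.260 CPM in the knockdown libraries in DMSO, which is 1 to 5 counts, and it passed with both hairpins (adjusted p = 1.36e-04 and 3.51e-05). Bcl6, a transcriptional repressor, fell by 0.81 and 0.74 on the log2 scale and Junb by 0.51 and 0.46, while Cebpb rose by 0.51 and 0.47. With SnxB, Hif1a and Myc rose by 0.24 (adjusted p = 0.00138) and 0.22 (adjusted p = 0.00447). The median log2 fold change of the tested targets was -0.11 for shCdk8-1 and -0.03 for shCdk8-2.

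**Figure D5:**
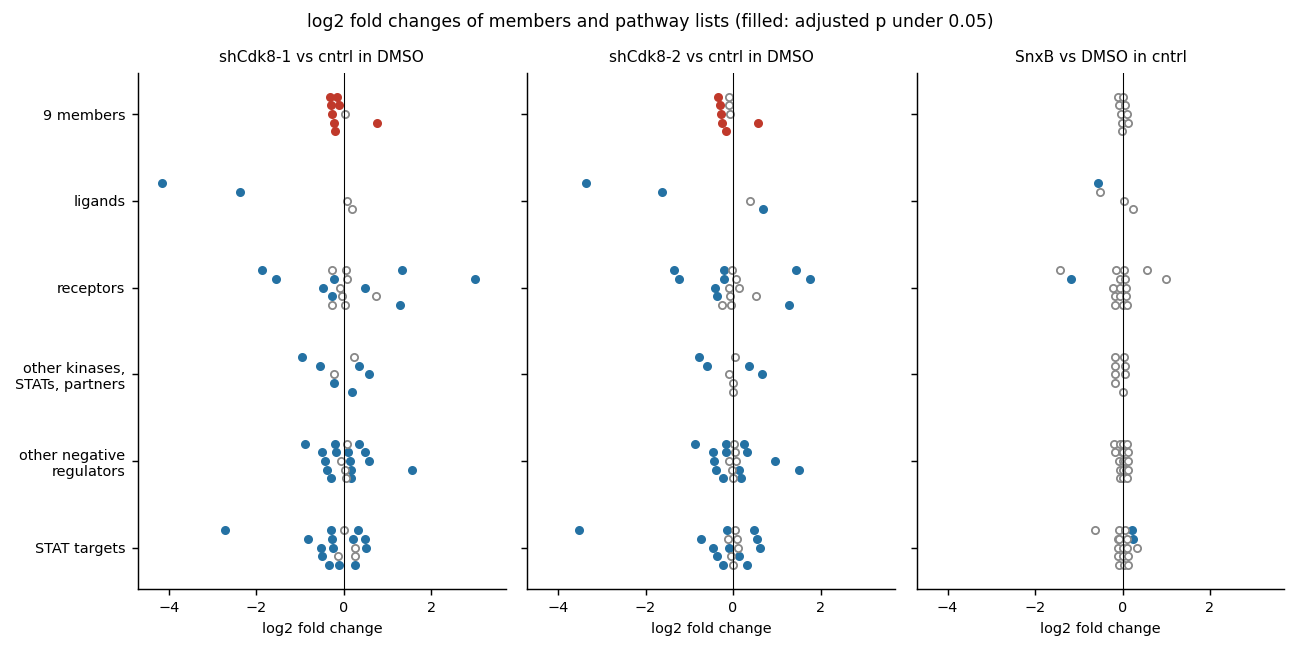
log2 fold changes of the 9 members (top, red where they passed) and of the tested genes of the 5 pathway lists (blue where they passed, open otherwise) for shCdk8-1, shCdk8-2 and SnxB against cntrl in DMSO; vertical offsets within a list only separate points. The members stayed within -0.35 and 0.76, whereas ligands, receptors and targets reached from a fitted -4.16 (Il15, with 2 to 3 counts per shCdk8-1 library) to 3.00 (Osmr, shCdk8-1).

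The genes most like each member were named by the Pearson correlation of log2 CPM over the 18 libraries among the 11181 genes that averaged 1 CPM or more. The points share lines and treatments, so the coefficients describe these libraries. Jak1 was closest to Tenm4 (r = 0.99) and Akap11 (r = 0.99), Stat3 to Sec63 (r = 0.97) and Spata13 (r = 0.96), and Socs3 to E2f2 (r = 0.97) and Pstpip2 (r = 0.97). Stat6 was closest to Epha2 and Osgin1 (r = 0.93 and 0.92), Stat5a to Ppp2cb and Fanca (r = 0.93 and 0.91), and Socs1 to Gpsm3 and 1700030K09Rik (r = 0.94 and 0.93). Likeness was weaker for Stat5b (Reps1, r = 0.90), Tyk2 (Scfd2, r = 0.89) and Jak2 (Osbp, r = 0.81). Neither another member nor a gene of the 5 lists was among these nearest genes. The 20 tested neighbors of each of the 10 members held both higher and lower genes. Over all genes tested, 30.0% were higher and 30.6% lower with shCdk8-1, and 28.7% higher and 29.5% lower with shCdk8-2. Around Jak1, which fell, 6 were higher and 6 lower with shCdk8-1, and 4 higher and 7 lower with shCdk8-2. Around Jak2, 6 were higher and 8 lower with shCdk8-1, and around Stat6 11 were higher and 4 lower. Of the 20 tested neighbors of Stat3, 9 were higher and 5 lower with shCdk8-1, although Stat3 itself fell. Around Socs1, which fell with shCdk8-2, 13 of the 20 neighbors were higher and 1 lower with that hairpin. Around Socs3, which rose, 7 of 20 were higher and 5 lower with each hairpin.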

How the data were processed

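The deposited files hold raw read counts per gene, which the authors made from 50 bp single-end reads trimmed with Trimmomatic, mapped with STAR to GRCm38 with GENCODE M13, and counted by strand on the union of exons with featureCounts 1.5.1, without normalization or pooling. Reads that map to several places or overlap several genes on a strand are left out by that program's defaults. GENCODE M21, of that build too, gave symbols for 50376 of 50686 genes. No 2 libraries were identical.

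Counts were analysed with edgeR 4.0.16 (R 4.3.3): filterByExpr (min.count 10, min.total.count 15), TMM scaling, glmQLFit, glmQLFTest and Benjamini-Hochberg adjustment over all genes tested, passed at an adjusted p under 0.05. Comparisons within cntrl and DMSO used 12 libraries (12590 genes) and all others 18 libraries (12772 genes), in 10 comparisons. The code was tested on simulated data. CPM in the text is relative to library totals, without TMM. Standard errors follow from the quasi-likelihood F statistic. The alternatives were DESeq2 1.42.0, edgeR's likelihood ratio test, other scalings, filters and sets of libraries, a stricter threshold, the replicate number as a block, and each library left out. List genes named are up to 4 per list with the largest log2 fold change among those that passed for shCdk8-1 or SnxB in cntrl. Members and lists were chosen with earlier results of these data known. Sequences were taken from RefSeq tables of GRCm38.p6. Figures were drawn with matplotlib 3.10.9. Immunoblot, flow cytometry and mouse data were not analysed here.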

Additional observations from a re-analysis of the deposited data

How the results depend on the processing

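No call on a member changed its sign under any alternative. At an adjusted p under 0.01, 5 members passed for shCdk8-1 against cntrl in DMSO in place of 8. All genes were not counted at that threshold. Leaving out 1 library at a time gave 5 to 8 members, with 5 without shCdk8-1 replicate 1. Over all genes it gave 7192 to 7905 calls, with 7223 without that library, where all libraries gave 7624. With SnxB in cntrl, library totals in place of TMM gave 1 member (Stat6) in place of 0, beside 739 genes in place of 696. Leaving out 1 library gave 0 to 1 member, with 1 without SnxB replicate 1, beside 607 genes. Of the 28 calls on single members, DESeq2 and the likelihood ratio test each lost 2, library totals 4 and no filter 3, and a filter of more than 1 CPM in 3 libraries lost none. Leaving out libraries lost 25 of 420 calls, those of Jak2, Tyk2, Stat6, Stat5a and Socs1; the calls of Jak1, Stat3 and Socs3 were kept in each. Deviations of same-numbered libraries correlated at -0.16 to 0.25, and no comparison had all 3 pairs above 0.1, the limit set for pairing. All 3 pairs were above 0 for SnxB in shCdk8-1 (0.0549 to 0.0847, each library closest to its own number) and for shCdk8-2 against cntrl in SnxB (0.0582 to 0.247). This is a hint from the data, and the header numbers of the shCdk8-2 libraries differ from their labels. With the replicate number as a block, 7 members passed for shCdk8-1 and 6 for shCdk8-2 in DMSO, 6 and 7 in SnxB, and 0 in the others, beside 59.4%, 56.9%, 60.4% and 56.7% of all genes in the first 4. The calls lost were Jak2 with shCdk8-1 in DMSO (adjusted p = 0.0573) and Stat6 with shCdk8-1 in SnxB (adjusted p = 0.0517). Among the members with counts, Socs1 had the fewest, 141 to 232 per library.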
